A study of Mus musculus with 7 samples.

Results

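The dermis of the hairy ear of Koa mice was set against the dermis of the back of wild-type (WT) mice, gene by gene, in RNA-seq libraries of skin cells purified by FACS at postnatal day 50. A gene was included when it reached 1 FPKM (fragments counted per gene, scaled to transcript length and sequencing depth) in either library, which kept 14223 of 22552 gene symbols. Koa mice had the genotype Wt/Koa and WT mice Wt/Wt, and the strain label of every library was CD1/C3H. Koa is a dominant allele with an inversion on chromosome 15, the chromosome that carries the Hoxc cluster, and its carriers grow long hair on the ears. Each group was 1 library, so the differences below are values without a replicate check, and the groups were not tested against each other. Neither the number of animals behind a library nor the surface markers used for the sort are given in the sources used here. Genotype and body position differ together between these groups and cannot be told apart in this comparison. For that reason the level in WT ear dermis is set beside the values, and so is, where it matters, the level in the epidermis of the same position.

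Differences are given as log2(FPKM + 1) in Koa ear dermis minus the same in dorsal dermis, a scale that understates the change of genes near 1 FPKM. A gene counted as higher or lower when this difference reached 1 in size, about 2-fold for abundant genes. By this rule 845 of the genes kept (5.94%) stood higher in the Koa ear, 1370 (9.63%) stood lower and 12008 (84.4%) lay between. The median difference over all genes kept was 0.04. When both libraries were scaled to the same FPKM total, 1261 genes were higher and 1015 lower, the share of higher genes among those past the rule went from 38.1% to 55.4%, and the median over all genes moved to 0.28. The directions given below for single genes past the rule were the same under both scalings.

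The depth recovered from the deposited values was 35.6 M fragments for Koa ear dermis, 32.4 M for dorsal dermis and 36.4 M for WT ear dermis, with 31.7 to 40.4 M over the 6 libraries for which it could be recovered. At the Koa depth 1 FPKM on a transcript of 2 kb stands for about 63.5 fragments. Fibroblast markers marked both libraries as dermis: Pdgfra, a growth factor receptor of fibroblasts, stood at 99.3 FPKM in Koa ear dermis and 55.3 FPKM in dorsal dermis against at most 0.268 FPKM in the epidermis of either position. Keratinocyte RNA was present too, and in unequal amounts. Over 10 basal keratinocyte markers, the median level in dorsal dermis was 40.7% of that in dorsal epidermis, against 11.6% in the Koa ear and 7.995% in the WT ear. A second value is therefore given for many lists, in which these shares of the epidermal library were subtracted. Remainders below 0 were set to 0, and the rest was rescaled by division by 1 minus the share. Where the dorsal remainder was set to 0, a higher value after subtraction reflects that limit and not a measured dorsal level. Over all 13909 genes then kept, 1674 were higher and 1207 lower, with a median difference of 0.24. By its construction the rescaling lowers the difference of genes nearly absent from epidermis, as for Pdgfra from 0.83 to 0.27. In bulk libraries such as these, fewer cells of a type and less RNA per cell cannot be told apart. Col1a1, Col1a2 and Col3a1, the main fibrillar collagens of dermis, are listed at 0 in both libraries and give no value here.

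**Figure D1:**
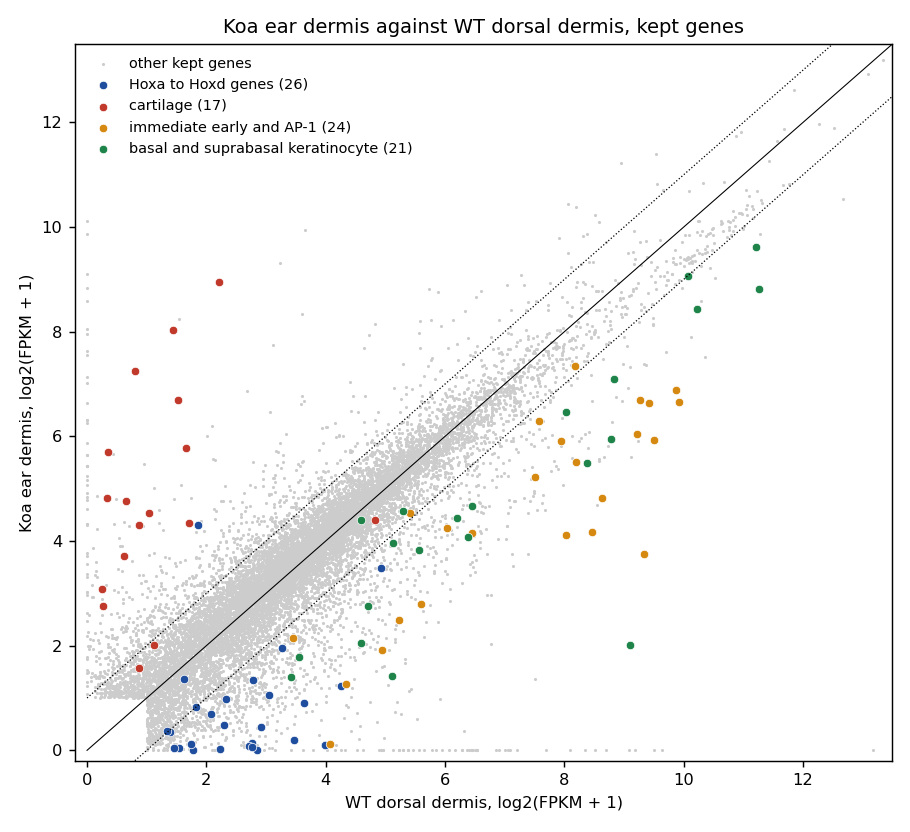
Level of each kept gene in WT dorsal dermis (x axis) and Koa ear dermis (y axis), both as log2(FPKM + 1), with 1 library per axis; the solid line marks equal levels, the dotted lines a difference of 1, and coloured points 4 groups of gene lists with the number of kept members. Cartilage genes lie far above the line in the upper left, whereas most Hox genes, immediate early genes and keratinocyte genes lie below it.

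Hox genes encode transcription factors that are expressed along the body axis in nested domains in the order in which they lie in their clusters, and adult fibroblasts keep much of that code as a record of where in the body they sit. Anterior skin such as the ear uses few of them, and the skin of the trunk uses many. The dermis in turn instructs hair follicles, through the dermal papilla and through secreted Wnt, BMP and FGF signals, and the pinna of the ear holds a plate of elastic cartilage under the skin.

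The Hox code of Koa ear dermis was far thinner than that of the back. Of the 39 Hox genes of the Hoxa, Hoxb, Hoxc and Hoxd clusters, 26 were kept. Of these, 23 were lower in Koa ear dermis, 1 was higher and 2 lay between, beside a background of 9.63% lower over all genes kept. Only Hoxa2, Hoxc4, Hoxc5, Hoxc6, Hoxc8, Hoxc9 and Hoxd8 reached 1 FPKM in Koa ear dermis. The others were kept on their dorsal level alone and could not count as higher, which limits this count. Their summed level was 42.5 FPKM in Koa ear dermis, 169 FPKM in dorsal dermis and 28.5 FPKM in WT ear dermis. Most of what Koa ear dermis had was Hoxa2 and Hoxc8.

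**Figure D2:**
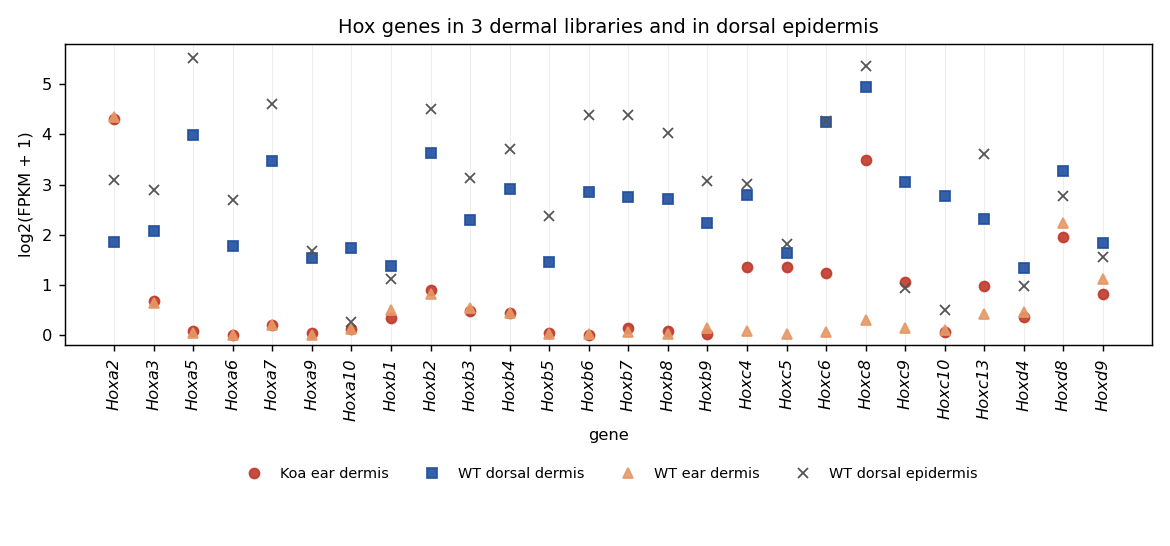
Level as log2(FPKM + 1) of the 26 kept Hox genes (x axis) in Koa ear dermis, WT dorsal dermis, WT ear dermis and WT dorsal epidermis, 1 library each. Hoxa, Hoxb and Hoxd genes in Koa ear dermis lie on or near those of WT ear dermis, whereas Hoxc4 to Hoxc9 lie between WT ear and dorsal dermis.

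In the Hoxc cluster, on chromosome 15, Koa ear dermis stood between the WT ear and the back. Hoxc8, a gene of trunk identity, stood at 10.2 FPKM in Koa ear dermis, 29.5 FPKM in dorsal dermis and 0.241 FPKM in WT ear dermis. Its Koa level was 34.5% of the dorsal level, with an exact 95% interval of 31.4% to 38.0% that covers counting error alone. Hoxc5 came nearer still, with 1.56 FPKM in Koa ear dermis, 2.09 FPKM in dorsal dermis and 0.0109 FPKM in WT ear dermis, which put Koa at 74.5% of the back (interval 59.7% to 93.1%). It was the only kept Hoxc gene within the size rule. The other Hoxc genes spread widely below these. Hoxc4 stood at 1.55 FPKM in Koa ear dermis against 5.90 FPKM in the back, or 26.2% (20.9% to 32.7%). Hoxc9 stood at 1.09 FPKM against 7.24 FPKM, or 15.1% (11.8% to 19.1%). Hoxc6 stood at 1.36 FPKM against 18.04 FPKM, or 7.52% (5.76% to 9.68%). In WT ear dermis these 3 genes stood at 0.0618, 0.109 and 0.0396 FPKM, below both.

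The share of the dorsal level thus ran from 7.52% for Hoxc6 to 74.5% for its neighbour Hoxc5, and the counting intervals of this pair do not overlap, whereas those of Hoxc4 and Hoxc8 do. Hoxc10, a gene of the posterior trunk and hindlimb, was apart from this group. Its level was 0.0493 FPKM in Koa ear dermis, 5.80 FPKM in dorsal dermis and 0.0804 FPKM in WT ear dermis, so Koa ear dermis had 0.850% of the dorsal level (0.176% to 2.53%, from 3 fragments against 318). Hoxc11 and Hoxc12 were under 1 FPKM in both libraries. Hoxc13, which hair matrix cells use to switch on hair keratins, stood at 0.983 FPKM in Koa ear dermis and 4.004 FPKM in dorsal dermis, below its 10.3 and 11.2 FPKM in the epidermis of the same positions. The 7 kept Hoxc genes had a median difference of -1.45, against 0.04 over all genes, and 6 of 7 were lower. After the epidermal share was subtracted, 6 Hoxc genes were still kept, 4 of them were lower and their median was -1.84, whereas the median over the same 7 genes was -1.17, nearer to 0 than before. Hoxc8 then lay within the rule at -0.93, and Hoxc5 was at -0.06.

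In the Hoxa and Hoxb clusters the Koa ear lay with the WT ear. Of the kept Hoxb genes 9 of 9 were lower in Koa ear dermis, with a median difference of -2.47. Hoxb2 stood at 0.868 FPKM in Koa ear dermis, 11.4 FPKM in dorsal dermis and 0.771 FPKM in WT ear dermis. Hoxb4 stood at 0.357, 6.54 and 0.360 FPKM in the same order. Hoxb7 stood at 0.106, 5.77 and 0.0516 FPKM, and Hoxb8 at 0.0576, 5.58 and 0.0225 FPKM. For each of these genes the ear libraries lay together, far below the back. Hoxb6 is listed at 0 in Koa ear dermis, with 6.22 FPKM in dorsal dermis. Of the rest, Hoxb1, Hoxb3, Hoxb5 and Hoxb9 had between 1.62 and 3.88 FPKM in dorsal dermis and at most 0.397 FPKM in Koa ear dermis. The Hoxb genes were higher in dorsal epidermis than in dorsal dermis, apart from Hoxb1. Hoxb7, for example, stood at 19.8 FPKM there. After subtraction of the epidermal share, 4 of 5 Hoxb genes still kept were lower and their median difference was -1.20, or -0.77 over the same 9 genes. Hoxb5, Hoxb6, Hoxb7 and Hoxb8 were no longer kept, with less than 1 FPKM left in both libraries.

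Hoxa2, which specifies the second pharyngeal arch that forms the pinna, was the only Hox gene higher in Koa ear dermis, with 18.7 FPKM against 2.61 FPKM in the back and 19.3 FPKM in WT ear dermis. Hoxa5 stood at 0.0672 FPKM in Koa ear dermis and 14.95 FPKM in the back, and Hoxa7 at 0.145 and 10.1 FPKM. Hoxa3 (0.613 against 3.23 FPKM), Hoxa9 (0.0272 against 1.91 FPKM) and Hoxa10 (0.0863 against 2.34 FPKM) were lower too. Hoxa6 is listed at 0 in Koa ear dermis, with 2.43 FPKM in the back. The median over the 7 kept Hoxa genes was -1.62, and -0.42 over the same genes after subtraction, when 5 were kept and 2 of them were lower. In the Hoxd cluster Hoxd8 stood at 2.90 FPKM in Koa ear dermis, 8.58 FPKM in dorsal dermis and 3.71 FPKM in WT ear dermis. Hoxd9 stood at 0.771, 2.56 and 1.16 FPKM, and Hoxd4, just short of the size rule at -0.98, at 0.286, 1.53 and 0.373 FPKM. In this cluster both ears kept more than a trace of the dorsal level, with the WT ear slightly above the Koa ear.

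Other transcription factors that mark body position split into an ear set and a trunk set. Of 23 kept members of this list, 8 were higher in Koa ear dermis and 4 lower. Dlx6, a gene of the lower jaw and ear region of the pharyngeal arches, stood at 14.0 FPKM in Koa ear dermis, 0.463 FPKM in dorsal dermis and 15.1 FPKM in WT ear dermis. Meis2, a Hox cofactor, stood at 20.3, 3.40 and 20.6 FPKM, and Prrx2, a gene of craniofacial and limb mesenchyme, at 41.2, 8.55 and 58.2 FPKM. On the trunk side, En1, which marks the lineage of dorsal fibroblasts that makes scar tissue, stood at 0.0717 FPKM in Koa ear dermis, 6.24 FPKM in the back and 0.0467 FPKM in WT ear dermis. Zic1, a gene of dorsal somite derivatives, stood at 0.116, 5.10 and 0.236 FPKM. For each of these genes Koa ear dermis sat with WT ear dermis and away from the back. Msx1 also belonged to the ear set, with 14.1 FPKM in Koa ear dermis and 3.56 FPKM in the back. Sim2, a transcription factor named here because it was among the 10 highest of the genes above their epidermal level, stood at 28.1 FPKM in Koa ear dermis, 0.125 FPKM in the back and 27.1 FPKM in WT ear dermis.

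Genes of cartilage and dense connective tissue made up most of those furthest above the back in Koa ear dermis. Of 17 kept cartilage genes, 14 were higher and 0 lower, beside a background of 5.94% higher, and their median difference was 3.51. Cytl1, a secreted protein of chondrocytes, stood at 496 FPKM in Koa ear dermis, 3.61 FPKM in dorsal dermis and 354 FPKM in WT ear dermis, a difference between Koa and back of 6.75. Chad, the cartilage matrix protein chondroadherin, stood at 259.5 FPKM against 1.73 FPKM in the back. Ucma, made by young chondrocytes, stood at 151 FPKM against 0.755 FPKM. In WT ear dermis Chad stood at 257 FPKM and Ucma at 127 FPKM, so both ears held these genes at like levels. The cartilage collagens followed the same order, with Col9a1 at 51.0 against 0.277 FPKM, Col2a1 at 27.3 against 0.255 FPKM and Col11a1 at 54.2 against 2.15 FPKM. Comp, a matrix protein of cartilage and tendon, stood at 103 FPKM against 1.86 FPKM, and Acan, the proteoglycan aggrecan, at 22.3 FPKM against 1.04 FPKM. The 3 members not past the rule were Chadl (0.71), Sox5 (0.89) and Sox9 (-0.42); Sox9, the master regulator of cartilage, is also made by hair follicle cells and stood at 89.1 FPKM in dorsal epidermis. After subtraction of the epidermal share the median of the list was 3.76.

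Genes of tendon and dense matrix showed the same direction, with 11 of 13 higher, none lower and a median difference of 2.08. Angptl7, a secreted protein of cornea and connective tissue, stood at 990.5 FPKM in Koa ear dermis, 11.6 FPKM in dorsal dermis and 1310.5 FPKM in WT ear dermis. Cilp2, a cartilage and tendon matrix protein, stood at 49.6, 0.356 and 59.7 FPKM, and Thbs4, a thrombospondin of tendon, at 281, 27.4 and 224 FPKM. Both ear libraries were above the back for each of them. Fmod, the collagen-binding proteoglycan fibromodulin, was more than an order of magnitude apart, at 321 FPKM in Koa ear dermis and 11.2 FPKM in the back, and stood higher again in WT ear dermis at 624 FPKM. Clec3a and Kera were near the floor in the back, at 0.0680 and 0.690 FPKM, against 13.54 and 11.3 FPKM in Koa ear dermis.

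**Figure D3:**
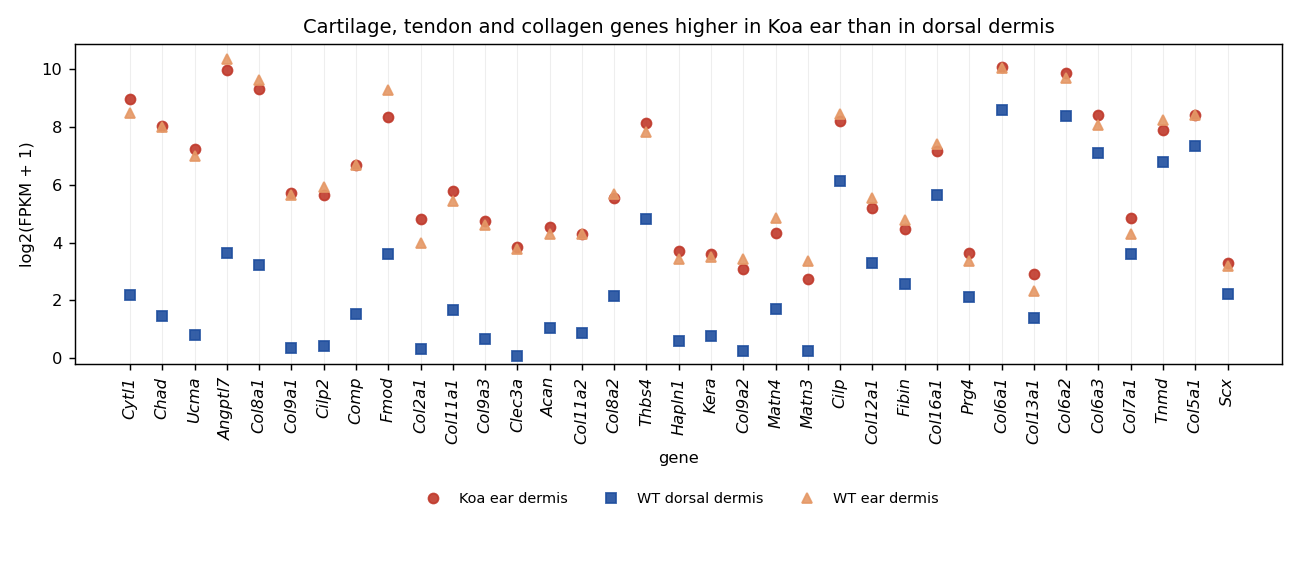
Level as log2(FPKM + 1) of every cartilage, tendon and collagen gene that was higher in Koa ear dermis than in dorsal dermis by 1 or more (x axis, ordered by that difference), in 3 dermal libraries, 1 each. The order follows from the selection; the WT ear, which was not used to select, lies beside Koa ear dermis.

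The wider dermal matrix leaned toward the Koa ear with a smaller shift. Of 20 kept collagen chains outside the cartilage list, 10 were higher and 1 was lower, with a median of 0.93. After subtraction 6 were higher and 2 lower, with a median of 0.62. Col8a1, a short-chain collagen of vessel walls and membranes, was the outstanding member, at 635 FPKM in Koa ear dermis, 8.43 FPKM in dorsal dermis and 791 FPKM in WT ear dermis. Its partner chain Col8a2 stood at 46.1, 3.42 and 50.8 FPKM. The chain that was lower, Col6a5, stood at 4.14 FPKM in Koa ear dermis and 18.5 FPKM in the back. The type VI chains Col6a1 (1087 against 384 FPKM) and Col6a2 (938 against 333 FPKM), which form beaded filaments around fibroblasts, were among the higher ones.

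Among elastic fibre genes 5 of 17 were higher and 1 was lower. Eln, elastin itself, stood at 539 FPKM in Koa ear dermis, 154 FPKM in dorsal dermis and 384 FPKM in WT ear dermis. Ltbp2 stood at 23.0 against 3.46 FPKM, and Fbln5, which helps to assemble elastin, at 39.3 against 6.75 FPKM. Fbln1 was the lower member, at 32.6 against 73.6 FPKM. Small leucine-rich proteoglycans, which bind collagen fibrils, were higher in 5 of 11 cases (2 after subtraction) and lower in none. Besides Fmod, Bgn (biglycan) was among them at 1194 against 365 FPKM. Matrix proteases and their inhibitors went both ways, 7 higher and 3 lower of 22. Timp3, an inhibitor held in the matrix, stood at 405 FPKM in Koa ear dermis and 91.1 FPKM in the back. Mmp9, a gelatinase of myeloid cells and injured tissue, stood at 2.45 against 21.2 FPKM.

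Fibroblast markers themselves were split. Vim, the intermediate filament of mesenchymal cells, stood at 1803 FPKM in Koa ear dermis and 753 FPKM in dorsal dermis. Postn, the matrix protein periostin, stood at 2401 against 494 FPKM, and Dlk1, a marker of immature fibroblasts, at 10.1 against 0.432 FPKM. Pi16 and Dpp4, markers of fascial and upper dermal fibroblasts, went the other way, with 59.6 and 14.0 FPKM in Koa ear dermis against 137 and 32.7 FPKM in the back. In all 5 of 17 were higher and 2 lower, and after subtraction 3 and 4.

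**Figure D4:**
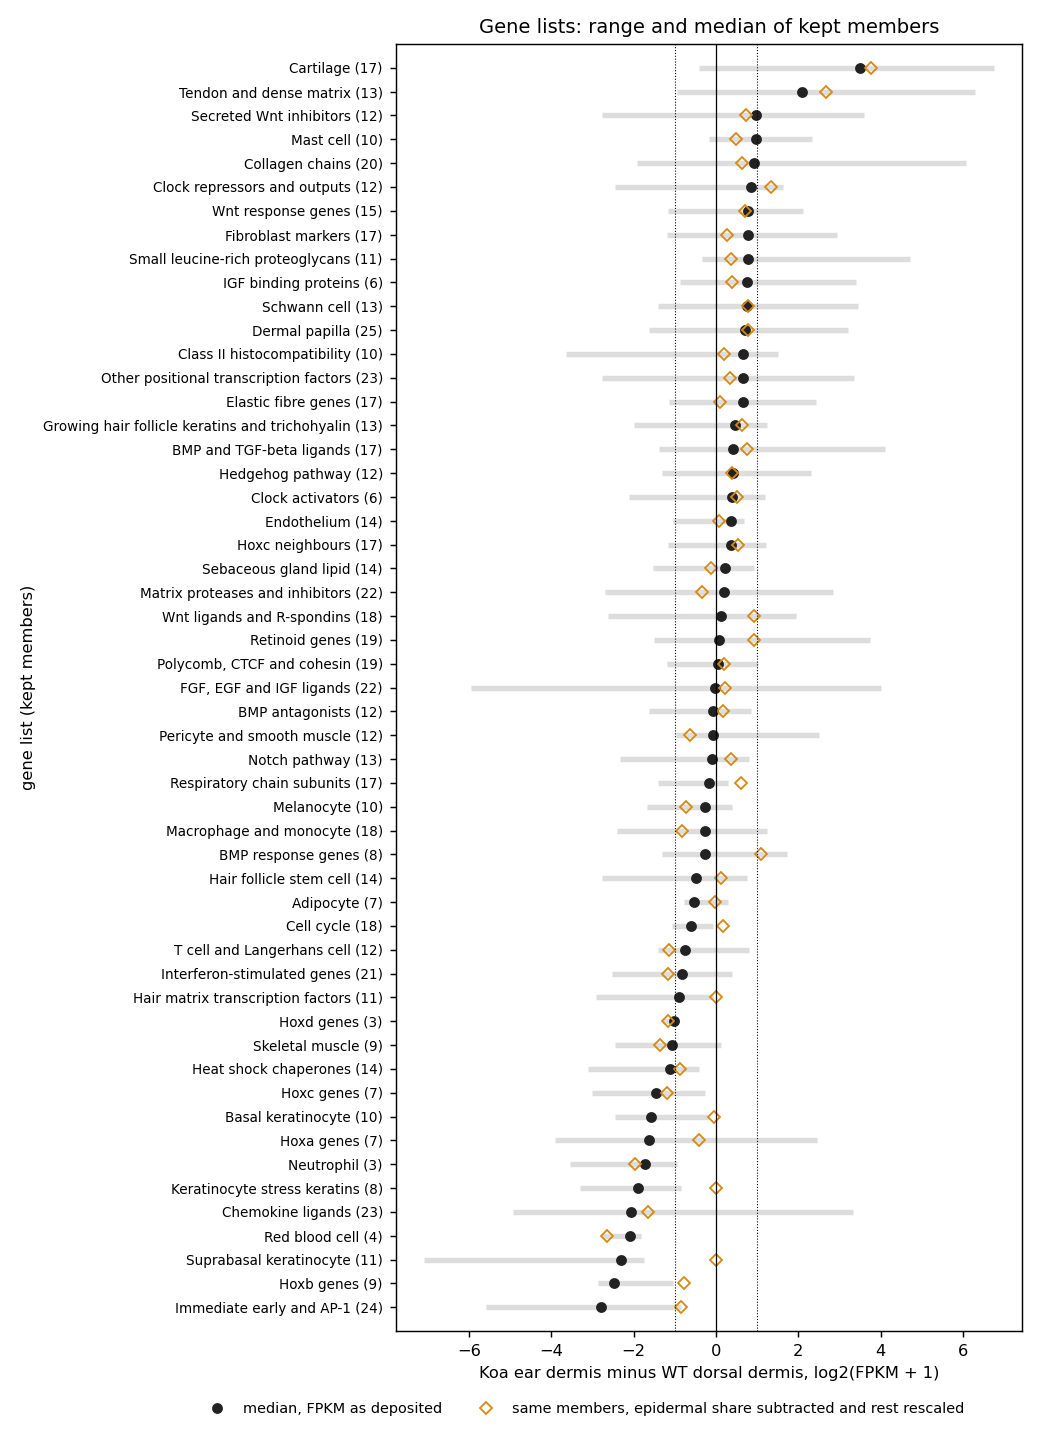
Difference between Koa ear dermis and WT dorsal dermis, log2(FPKM + 1), for each gene list (y axis, with the number of kept members): grey bars span the lowest to the highest member, black points are medians, open diamonds the median of the same members after the epidermal share was subtracted and the rest rescaled; dotted lines mark the size rule. Cartilage and tendon lead the higher lists with or without subtraction. The medians of the immediate early, keratinocyte, Hoxa and Hoxb lists move toward 0 with it. For the basal keratinocyte markers this follows from how the share was set.

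The signalling genes of hair growth were compared next, since the Koa ear carries long hair. The dermal papilla is the cluster of fibroblasts at the base of the hair follicle that directs its growth. Of 25 kept papilla genes, 9 stood higher and 2 lower, with a median of 0.72. Wif1, a secreted Wnt inhibitor, stood at 244 FPKM in Koa ear dermis, 25.6 FPKM in dorsal dermis and 218 FPKM in WT ear dermis. Corin, a protease of the papilla, stood at 5.35, 1.12 and 3.63 FPKM. Ndp, a ligand that acts through Wnt receptors, stood at 7.84, 1.15 and 14.0 FPKM. All 3 were high in both ears. Sostdc1, a BMP and Wnt antagonist that keratinocytes also make, was lower at 17.4 against 56.1 FPKM, with 253 FPKM in dorsal epidermis, and turned to 1.11 after subtraction.

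Several of the Wnt ligands that were lower are made mainly in epidermis. Of 18 kept Wnt and R-spondin genes, 5 were higher and 5 lower, and after subtraction 9 were higher and 2 lower of 15 still kept. Wnt3, at 1.68 FPKM in Koa ear dermis and 15.4 FPKM in the back, and Wnt7b, at 2.75 and 8.50 FPKM, were more abundant in dorsal epidermis, at 34.2 and 23.6 FPKM. The R-spondins, which amplify Wnt signals, were near 0 in epidermis apart from Rspo3. Rspo1 stood at 43.4 FPKM in Koa ear dermis, 10.6 FPKM in the back and 20.1 FPKM in WT ear dermis. Rspo4 stood at 3.63, 0.342 and 2.88 FPKM. Rspo2, linked to coat type in dogs, was the R-spondin with the opposite order, at 1.13 FPKM in Koa ear dermis, 6.30 FPKM in the back and 0.307 FPKM in WT ear dermis.

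Secreted Wnt inhibitors and Wnt response genes were both higher more often than lower. Of 12 inhibitors, 6 were higher and 4 lower. Frzb stood at 18.6 FPKM in Koa ear dermis and 0.625 FPKM in dorsal dermis, and Dkk2 at 108 and 24.2 FPKM. Sfrp4 had the reverse order, with 2.68 FPKM in Koa ear dermis and 24.0 FPKM in the back, and so had Sfrp1, with 14.8 and 36.5 FPKM. Of 15 response genes, 6 were higher and 2 lower. Sp5, a direct Wnt target, stood at 5.17 FPKM in Koa ear dermis, 0.424 FPKM in the back and 5.05 FPKM in WT ear dermis. Nkd2, a feedback inhibitor, stood at 20.5, 7.41 and 24.4 FPKM. The WT ear, which has short hair, had these response genes at levels like those of the Koa ear.

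BMP and TGF-beta ligands included some of the widest gaps among signals. Bmp5, a ligand known for shaping the pinna in mice with short ears, stood at 72.2 FPKM in Koa ear dermis, 3.27 FPKM in dorsal dermis and 70.3 FPKM in WT ear dermis. Gdf5, a ligand of joints and tendons, stood at 17.7, 0.117 and 25.1 FPKM. Tgfb3 stood at 71.5, 15.3 and 61.3 FPKM. Only Gdf10 of the 17 kept ligands was lower, at 18.8 against 50.7 FPKM, and 4 were higher (7 after subtraction). Among 12 BMP antagonists no gene was higher and Sostdc1 was the lower member, and after subtraction 3 were higher and 1 lower of 13 still kept. Among BMP response genes Msx1 was higher, whereas Id3 stood at 74.1 against 152 FPKM and Smad7 at 5.38 against 14.9 FPKM. Id3 had 365 FPKM in dorsal epidermis, and its difference turned from -1.02 to 3.57 after subtraction.

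Growth factor ligands held both extremes. Igf2 stood at 63.5 FPKM in Koa ear dermis, 3.01 FPKM in dorsal dermis and 116 FPKM in WT ear dermis, and Igf1 at 89.1, 20.4 and 103 FPKM. Igfbp2, which binds both, stood at 87.6, 7.36 and 91.5 FPKM, and Igfbp5 at 889.9, 238 and 779 FPKM. The IGF ligands and these binding proteins were thus high in both ears. Epgn and Areg, ligands of the EGF receptor that keratinocytes release, were at the opposite end. Epgn stood at 0.2998 FPKM in Koa ear dermis and 79.0 FPKM in the back, with 295 FPKM in dorsal epidermis. Areg stood at 0.169 against 22.7 FPKM, with 77.7 FPKM in dorsal epidermis. Hbegf, the third of these ligands, stood at 3.53 against 28.4 FPKM and turned to 2.05 after subtraction, with its dorsal remainder set to 0. Of 22 ligands kept in all, 4 were higher and 5 lower, and after subtraction 8 were higher and 4 lower of 21 still kept. No FGF ligand was lower, and Fgf2 was the higher member of that family, at 11.5 against 3.65 FPKM.

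The Hedgehog co-receptors stood together. Boc stood at 108 FPKM in Koa ear dermis and 20.9 FPKM in dorsal dermis, Gas1 at 180.1 and 53.9 FPKM, and Cdon at 52.0 and 20.7 FPKM. These were the 3 higher members of 12 kept. The ligand Shh was the lower member, with 0.0342 FPKM in Koa ear dermis, 1.54 FPKM in the back and 4.25 FPKM in dorsal epidermis. In the Notch list none of 13 was higher and 2 were lower, Hes1 at 59.6 against 302 FPKM and Dll1 at 4.08 against 13.8 FPKM. Both are more abundant in dorsal epidermis, and their differences turned to 1.03 and 1.27 after subtraction. The dorsal remainder of Dll1 was set to 0, so its value does not rest on a measured dorsal level. Among retinoid genes 7 of 19 were higher and 2 lower. The enzymes that degrade retinoic acid led them. Cyp26b1 stood at 102 FPKM in Koa ear dermis, 11.5 FPKM in the back and 119.9 FPKM in WT ear dermis, and Cyp26a1 at 19.6, 0.529 and 27.99 FPKM. Aldh1a1, which makes retinoic acid, was high in the ears as well, at 165, 38.1 and 140.0 FPKM.

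Genes of the growing hair follicle were another group in which several members of the Koa ear stood nearer to the back than those of the WT ear did. Of 13 kept genes of the inner root sheath and hair shaft, 10 lay within the size rule, 1 was higher and 2 were lower. After subtraction 4 were higher and 0 lower of 10 still kept. Krt71, an inner root sheath keratin, stood at 8.25 FPKM in Koa ear dermis, 4.19 FPKM in dorsal dermis and 0.0279 FPKM in WT ear dermis; it and Krt35 were named after their values were seen. Krt35, a hair shaft keratin, stood at 6.52, 6.33 and 0.0362 FPKM. Tchh, the root sheath protein trichohyalin, was the higher member at 8.16 against 2.84 FPKM. Krt32 and Krt75 were lower, at 1.03 and 1.36 FPKM against 7.11 and 3.92 FPKM in the back. These genes are made by epithelial cells, and each one named had a higher level in the epidermal library of its position: Krt71 stood at 31.9 FPKM in Koa ear epidermis and 7.55 FPKM in dorsal epidermis.

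Regulators of the hair matrix and of hair follicle stem cells were lower or within the rule. Of 11 hair matrix factors none was higher and 5 were lower, and after subtraction 2 were higher and 1 lower of 5 still kept. Ovol1 stood at 1.39 FPKM in Koa ear dermis and 16.9 FPKM in dorsal dermis, with 67.3 FPKM in dorsal epidermis. Gata3, which directs the inner root sheath, stood at 9.43 against 55.2 FPKM, and turned to 1.12 after subtraction, with its dorsal remainder set to 0. Vdr, the other factor higher after subtraction, had its dorsal remainder set to 0 as well. Of 14 stem cell genes none was higher and 5 were lower, with Lhx2, a factor that maintains stem cell quiescence, at 2.93 against 25.9 FPKM and Krt15 at 448 against 2462 FPKM. After subtraction 0 of 10 stem cell genes still kept were lower and 4 were higher. Fgf18, Foxc1 and Sox9, named here because they were among those higher, had their dorsal remainder set to 0. Nfib, the other one, was at 1.61 with 13.9 FPKM left in dorsal dermis.

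Keratinocyte genes were mostly lower in the values as deposited, and fewer were so after subtraction. Of the basal markers 8 of 10 were lower with a median of -1.58, and of the suprabasal markers 11 of 11 with a median of -2.31. After subtraction 1 was higher and 3 lower of 6 still kept among the basal markers. The share was set from these same 10 markers, so their move toward 0 follows from the construction and tests nothing. Among the suprabasal ones 4 were higher and 3 lower of 7 still kept, and over the same 11 genes the median was 0. Krt5, the keratin of basal cells, stood at 787 FPKM in Koa ear dermis and 2377 FPKM in dorsal dermis. Keratins of the upper epidermis lay at or near both ends of the whole comparison. Krt77 stood at 3.04 FPKM in Koa ear dermis and 549 FPKM in dorsal dermis, the widest gap on the lower side. Krt2, a keratin of thick and exposed skin, stood at 302 FPKM in Koa ear dermis and 1.92 FPKM in the back, next to Cytl1 on the higher side. In epidermis Krt77 stood at 28.8 FPKM in the Koa ear and 1034 FPKM in the back, and Krt2 at 2591 and 9.40 FPKM. The dermal libraries thus had the same order as the epidermis next to them. After subtraction Krt77 was among the 3 suprabasal genes still lower, at -7.76 with 215 FPKM left in dorsal dermis. Lor, also among them, was at -4.63. The 4 suprabasal genes that were higher had their dorsal remainder set to 0. The part of keratinocyte RNA in these values was not tested. Keratins and other genes listed for keratinocyte stress, S100a8 and Sprr1a among them, were lower in 7 of 8 cases. After subtraction 1 was higher and 2 lower of 3 still kept. The lower ones were S100a8 and S100a9, at 23.8 and 35.9 FPKM in dorsal dermis against 1.34 and 3.56 FPKM in dorsal epidermis. Whether keratinocytes made them was not tested. Krt17 stood at 59.5 against 598 FPKM and turned from -3.31 to 2.45, and Krt16, at 2.83 against 27.4 FPKM, came to 0.39. The dorsal remainder of both was set to 0.

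A large group on the lower side was the immediate early genes, transcription factors and feedback regulators that cells transcribe rapidly after growth factor signals or stress. Of 24 kept members 22 were lower in Koa ear dermis and none was higher, beside a background of 9.63% lower, and their median difference was -2.79. Atf3, a stress-induced repressor, stood at 12.5 FPKM in Koa ear dermis, 642 FPKM in dorsal dermis and 8.17 FPKM in WT ear dermis. Fosb and Fosl1, subunits of the AP-1 factor, stood at 16.4 and 0.0936 FPKM in Koa ear dermis against 259 and 15.8 FPKM in the back. Nr4a1, an orphan nuclear receptor, stood at 17.0 against 352 FPKM. Klf2 and Klf4 were the members within the rule, at -0.86 and -0.84. The promoters of 3 lower members are shown because a binding motif of a factor that acts on such genes was found in them: the CRE, read by CREB, or the CArG box, read by SRF. Each gives the 250 bases before the RefSeq start in GRCm38.p6, 5′ to 3′ on the gene's own strand, with the motif in capitals.
Btg2: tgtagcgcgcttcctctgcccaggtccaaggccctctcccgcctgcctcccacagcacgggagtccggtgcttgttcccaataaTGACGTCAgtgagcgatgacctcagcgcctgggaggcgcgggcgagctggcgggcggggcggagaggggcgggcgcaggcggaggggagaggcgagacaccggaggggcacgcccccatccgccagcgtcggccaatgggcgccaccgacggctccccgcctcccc
Dusp1: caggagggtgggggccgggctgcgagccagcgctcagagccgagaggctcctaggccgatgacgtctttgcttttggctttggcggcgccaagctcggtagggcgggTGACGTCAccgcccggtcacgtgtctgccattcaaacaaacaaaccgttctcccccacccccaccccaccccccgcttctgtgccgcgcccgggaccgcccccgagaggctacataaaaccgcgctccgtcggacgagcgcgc
Zfp36: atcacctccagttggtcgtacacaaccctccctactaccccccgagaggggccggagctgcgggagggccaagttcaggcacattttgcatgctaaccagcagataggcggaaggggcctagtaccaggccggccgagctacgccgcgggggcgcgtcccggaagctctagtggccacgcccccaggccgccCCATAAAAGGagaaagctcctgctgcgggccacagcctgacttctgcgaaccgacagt

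Btg2, an antiproliferative gene (chr1:134079156-134079405, minus strand), stood at 27.3 FPKM in Koa ear dermis, 396 FPKM in dorsal dermis and 22.9 FPKM in WT ear dermis. Dusp1, a phosphatase that switches off MAP kinases (chr17:26508473-26508722, minus strand), stood at 103, 616 and 85.9 FPKM. Zfp36, which promotes decay of cytokine mRNAs (chr7:28379229-28379478, minus strand), stood at 60.04, 722 and 53.8 FPKM. In each case the back stood far above both ears. The motifs begin 166 bases before the start in Btg2, 143 in Dusp1 and 58 in Zfp36. Over windows from 250 bases before to 50 after the start, the CRE (TGACGTCA, the same on both strands) was in 2 of 19 promoters found for the list and in 1.88% of all 27025. The CArG box was in 1 of 19 and in 1.57% of all. The AP-1 motif (TGANTCA, the same on both strands) was in 0 of 19 and in 7.93% of all. A match is a description of these letters and not a measured site.

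The same genes were high in dorsal epidermis. The level in dorsal dermis was a median of 47.0% of that in dorsal epidermis over the list, with a range of 29.8% to 298%. The median of the basal keratinocyte markers was 40.7%. The part of keratinocyte RNA in the immediate early values was not tested. Of the 22 lower members 0 stood above dorsal epidermis in dorsal dermis. After subtraction 10 of 23 members still kept were lower, 7 were higher and the median was -0.88. Atf3, Btg2 and Nr4a1 turned to 3.35, 4.72 and 4.19, but their dorsal remainder was set to 0 and is not a measured level. Zfp36, Dusp1, Junb, Egr1 and Fos stayed lower, at -3.07, -2.21, -1.96, -1.82 and -1.79. Heat shock chaperones, which refold proteins after stress, were lower in 10 of 14 cases with none higher and a median of -1.11. Hspa1b stood at 25.6 FPKM in Koa ear dermis, 196 FPKM in dorsal dermis and 184 FPKM in dorsal epidermis. Its near-identical neighbour Hspa1a, with which it shares reads, stood at 13.6, 95.2 and 77.9 FPKM. These stood slightly higher in dorsal dermis than in the epidermis beside it, unlike Dnajb1, which stood at 23.0, 204 and 549.6 FPKM. After subtraction 2 were higher and 5 lower of 14 still kept among the chaperones, with a median of -0.88. The higher ones were Dnajb1 at 4.31 and Hspb1 at 5.26, whose dorsal remainder was also set to 0.

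**Figure D5:**
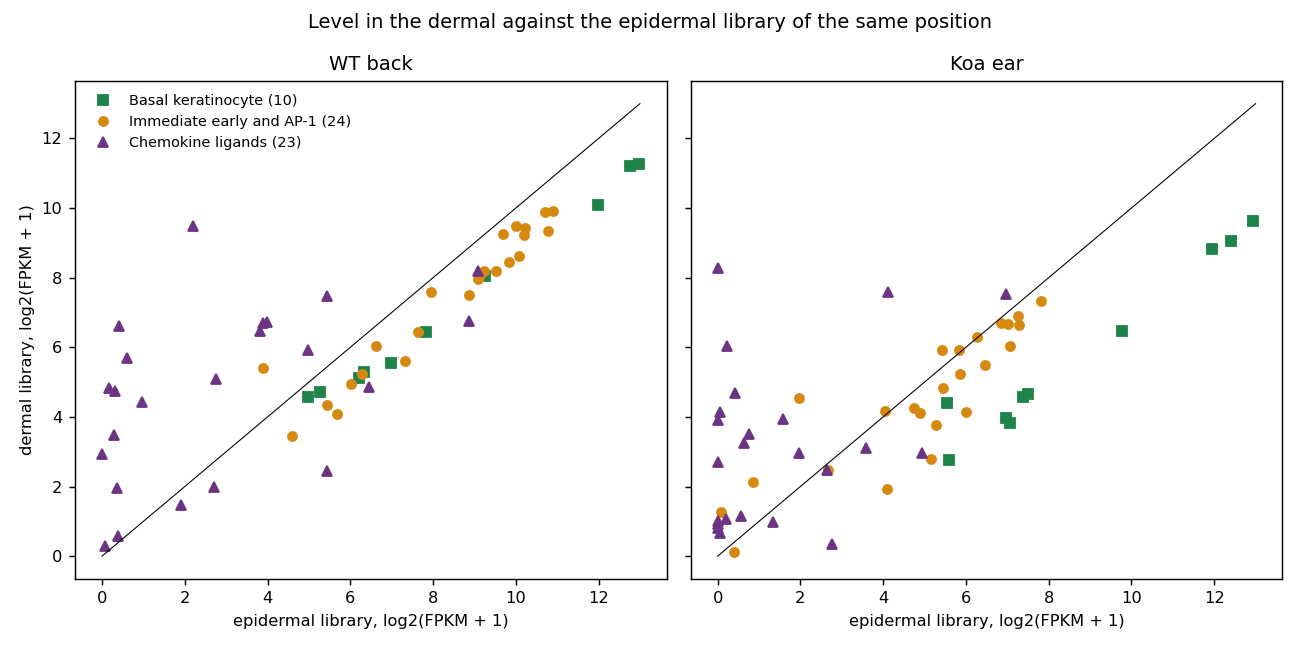
Level in the dermal library (y axis) against the epidermal library of the same position (x axis), both log2(FPKM + 1), for 3 gene lists in WT back and Koa ear, 1 library per axis; the line marks equal levels. In the back the immediate early genes lie along the basal keratinocyte markers and many chemokines lie above the line; in the Koa ear the immediate early genes are lower on both axes.

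Chemokines and other inflammatory signals were lower as well, and here the dermis itself held the higher level. Of 23 kept chemokines 15 were lower in Koa ear dermis and 2 higher, and 12 of the lower ones stood above dorsal epidermis. Among all 6697 kept genes above the epidermal level of their position, 593 (8.85%) were lower and 778 (11.6%) higher. Cxcl10, which attracts T cells, stood at 0.982 FPKM in Koa ear dermis, 59.1 FPKM in dorsal dermis and 30.3 FPKM in dorsal epidermis. Cxcl1, which attracts neutrophils, stood at 6.83, 104 and 13.9 FPKM, and Cxcl2 at 0.895, 25.6 and 0.251 FPKM. In WT ear dermis these 3 stood at 0.927, 9.62 and 1.22 FPKM, with the Koa ear. Il6, an inflammatory cytokine, stood at 0.382 FPKM in Koa ear dermis and 22.9 FPKM in the back, and Gdf15, a stress cytokine, at 0.671 and 34.7 FPKM. Has1, a hyaluronan synthase, stood at 0.908 against 35.7 FPKM. Ptgs2, the inducible prostaglandin synthase, stood at 0.513 against 45.3 FPKM but had 146 FPKM in dorsal epidermis. The 2 chemokines that were higher in Koa ear dermis, Ccl17 (14.1 against 0.498 FPKM) and Ccl22 (8.48 against 2.90 FPKM), are ligands of the same receptor, Ccr4. The immediate early and chaperone genes moved in the same direction in the same libraries, and their part in the chemokine values was not tested.

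Interferon-stimulated genes were lower in 6 of 21 cases and higher in none. All 21 stood above the epidermal level of their position, and of all kept genes that did so 8.85% were lower and 11.6% higher. Irf1, a transcription factor induced by interferon, stood at 22.3 FPKM in Koa ear dermis, 133 FPKM in dorsal dermis and 22.03 FPKM in WT ear dermis. Usp18 stood at 1.87, 14.7 and 1.12 FPKM, and Isg15, a ubiquitin-like modifier, at 4.02, 23.8 and 3.28 FPKM. The other 15 members lay within the rule in the values as deposited. After subtraction 12 of 21 were lower, with a median of -1.15 against -0.83 before. By its construction the rescaling tends to lower genes that stand above their epidermal level, which bears on this change.

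Markers of immune and blood cells differed by cell type. Of all kept genes above the epidermal level of their position, 11.6% were higher and 8.85% lower. Of 10 mast cell genes 5 stood higher (3 after subtraction) and none stood lower, with Cpa3 at 36.5 FPKM in Koa ear dermis, 16.0 FPKM in dorsal dermis and 87.7 FPKM in WT ear dermis. Tpsab1, a mast cell tryptase, stood at 5.01, 0.188 and 42.0 FPKM. Koa ear dermis thus stood between the back and the WT ear for these genes. Macrophage markers were mostly within the rule (15 of 18), except Ccr2, a monocyte receptor, which was higher at 24.1 against 9.72 FPKM, and Retnla and Folr2, which were lower at 26.3 and 17.6 FPKM against 143 and 67.7 FPKM. After subtraction 7 of 18 macrophage markers were lower and 0 higher. By its construction the rescaling lowers genes nearly absent from epidermis, which bears on this count and on the T cell count that follows. T cell and Langerhans cell markers were lower in 3 of 12 cases (8 after subtraction), among them the T cell kinase Lck at 6.03 against 16.9 FPKM. Ccr7, which guides dendritic and T cells to lymph nodes, stood at 0.635 against 22.04 FPKM. Red blood cell genes were lower in 4 of 4 cases, with Hba-a1, an alpha globin, at 101 against 500.3 FPKM; its copies share reads. Neutrophil genes were few, and Retnlg stood at 0.765 against 19.7 FPKM.

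Class II histocompatibility genes, which present antigen on dendritic cells and macrophages, did not move as a set. Cd74, the invariant chain, stood at 1677 FPKM in Koa ear dermis and 801 FPKM in dorsal dermis, and H2-Aa at 908 and 319 FPKM. In the values as deposited 4 of 10 were higher and 2 lower, but after subtraction 0 were higher, with Cd74 at 0.50 and H2-Aa at 0.95. Genes of the E locus went the other way. H2-Eb1 stood at 12.5 FPKM in Koa ear dermis, 167 FPKM in dorsal dermis and 171 FPKM in WT ear dermis. H2-Ea-ps stood at 24.7, 371 and 419.8 FPKM. For this pair the Koa library was apart from both WT libraries, which lay close together. The histocompatibility haplotype of the mice is not given in the sources used here, and the strain label covers a mix of CD1 and C3H, so its part in these values was not tested.

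Over all genes kept, 84.4% lay within the rule, 5.94% were higher and 9.63% lower. Among other cell types of the dermis, endothelial markers lay within the rule in 13 of 14 cases, with Tek the lower one at 6.78 against 15.04 FPKM. Pericyte and smooth muscle genes did so in 11 of 12 cases, Rgs5, a pericyte gene, being the exception at 51.0 FPKM in Koa ear dermis, 8.18 FPKM in the back and 42.5 FPKM in WT ear dermis. After subtraction 4 pericyte and smooth muscle genes were lower. Schwann cell genes, of the glia that wrap skin nerves, were higher in 6 of 13 cases and lower in 1. Gfap, an intermediate filament of non-myelinating glia, stood at 11.1 FPKM in Koa ear dermis, 0.111 FPKM in dorsal dermis and 0.720 FPKM in WT ear dermis. The Koa ear was thus above the WT ear as well for this gene. Melanocyte genes were within the rule in 9 of 10 cases, with Mlana lower at 17.7 against 59.0 FPKM, and 3 were lower after subtraction. Skeletal muscle genes were lower in 5 of 9 cases, Tnnc2, a troponin, standing at 0.806 against 8.92 FPKM. None of 7 adipocyte genes passed the rule in the values as deposited, 3 were lower after subtraction, and the defining markers Adipoq and Plin1 were under 1 FPKM in both libraries.

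Clock genes differed in a pattern of their own. The clock is a feedback loop in which activators switch on their own repressors once a day. Of 12 repressors and outputs 5 were higher in Koa ear dermis and 2 lower, and after subtraction 9 were higher and 1 lower of 12 still kept. Dbp, an output gene, stood at 10.6 FPKM in Koa ear dermis, 2.73 FPKM in dorsal dermis and 23.7 FPKM in WT ear dermis. Per3, a repressor, stood at 5.27, 1.41 and 12.8 FPKM, and Tef at 28.01, 8.78 and 55.5 FPKM. In these genes the Koa ear lay between the back and the WT ear. Bhlhe40 and Per1, which respond to stress signals as well as to the clock, were lower in Koa ear dermis, at 24.1 and 12.6 FPKM against 136 and 35.3 FPKM. The hour at which each mouse was sampled is not given in the sources used here.

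Few genes of the housekeeping lists passed the rule in the values as deposited, beside 84.4% of all genes kept within it. Respiratory chain subunits lay within the rule in 16 of 17 cases, Polycomb, CTCF and cohesin genes, the regulators of chromatin state and looping at Hox clusters, in 17 of 19, and cell cycle genes in 17 of 18. The cell cycle genes were nonetheless shifted, with a median of -0.61 and a highest member at -0.06. After subtraction 5 of 17 cell cycle genes and 6 of 17 respiratory subunits were higher and none lower. Over all 13909 genes then kept, 1674 were higher and 1207 lower. Ctcf, the insulator protein, stood at 34.6 FPKM in Koa ear dermis and 33.3 FPKM in dorsal dermis, and Ezh2, the Polycomb methyltransferase, at 12.6 and 16.4 FPKM; both were chosen after their values were seen. Genes that flank the Hoxc cluster on chromosome 15 were within the rule in 14 of 17 cases. Itga5 was higher at 19.7 against 7.85 FPKM, Pde1b was higher at 6.55 against 2.48 FPKM, and Hnrnpa1 was lower at 26.5 against 60.3 FPKM. After subtraction these 3 lay within the rule, at 0.82, 0.71 and -0.08. WT ear dermis had Itga5 at 19.3 FPKM, Pde1b at 9.33 FPKM and Hnrnpa1 at 28.5 FPKM, as in the Koa ear. These 3 neighbours thus did not share the step seen in Hoxc4 to Hoxc9 between the WT ear and the Koa ear.

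Single genes outside these lists completed the ends of the ranking. C6, a complement component, stood at 0.181 FPKM in Koa ear dermis, 30.5 FPKM in dorsal dermis and 0.156 FPKM in WT ear dermis. Ch25h, a cholesterol hydroxylase induced in inflammation, stood at 0.612 against 37.2 FPKM, with 175 FPKM in dorsal epidermis. Glycam1, a mucin-like ligand of L-selectin that lies on chromosome 15, stood at 0.0668 against 16.9 FPKM, with 0 listed in WT ear dermis. Gm10136, annotated as a pseudogene, stood at 3.09 FPKM in Koa ear dermis, 108 FPKM in the back and 48.8 FPKM in WT ear dermis. Of all genes 202 were higher and 409 lower by 2 or more on the log2 scale. Of the genes past the rule, 92.1% of the higher and 43.3% of the lower stood above the epidermal level of the position where they were higher.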

How the data were processed

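RNA of FACS-purified mouse skin cells was sequenced in 7 libraries, 1 per group. The authors deposited FPKM per gene symbol. The submitters' processing notes list TopHat2 2.0.13, Cufflinks 2.2.1 and 2 builds, GRCm38 and mm9, whose roles are not given in the sources used here. FPKM hides depth and is unstable for short RNAs, of which 206 were kept (54 higher, 90 lower). Of 22552 symbols 22290 were matched to RefSeq (GRCm38.p6), 2286 of them by synonym.

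Differences of log2(FPKM + 1) were taken with pandas 2.3.3 and Python 3.11.15, with a minimum of 1 FPKM in either library and a size rule of 1. With 1 library per group no test was possible. The tail dermis library, whose values carry at most 2 decimals, was not used. Depth was recovered from the steps that whole fragments leave in values under 0.1 FPKM: taking WT ear dermis as the reference, 74.8% to 77.1% of such values in the other libraries lay within 0.1% of a step, with a fitted length offset of 217 nt. Fragments of Hox genes (longest GENCODE transcript) gave exact 95% intervals (SciPy 1.17.1), which cover counting error only. Both steps were tested on simulated data. The epidermal share is the median ratio of dermis to epidermis over 10 basal keratinocyte markers; the rescaled subtraction was chosen after seeing the data.

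The 53 gene lists, the members and the settings were chosen with earlier results of these data known. Named genes come from a rule: every kept Hox gene, the 10 largest differences each way among genes reaching 5 FPKM (also among genes above their epidermal level, short RNAs left out) and up to 6 members past the size rule per list; not all are printed, and 2 are not reported here. Pdgfra, Acan, Col11a1, Col6a2, Sfrp1, Fgf2, Dusp1, Krt35, Krt71, Ctcf, Ezh2 and list members named as within the size rule were chosen after their values were seen.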

Additional observations from a re-analysis of the deposited data

How the results depend on the processing

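With 1 library per group no replicate could be left out. No paired analysis was possible because each group has 1 library and the result comes from no test. A pseudocount of 5 FPKM left 368 genes higher and 682 lower, against 845 and 1370 with 1 FPKM. Subtraction of the epidermal share gave 3944 and 602, and with rescaling 1674 and 1207. Keeping only genes above their epidermal level gave 593 lower. The median of all genes was 0.72 after plain subtraction and 0.24 after rescaling. Of 251 genes chosen by the naming rule, 60 missed the size rule with a pseudocount of 5 FPKM and 18 with equal totals. None of those past the rule changed sign under these or the other pseudocount and scaling, while 3 of those within it did with equal totals. In the subtractions, 21 genes past the rule turned to the higher side, 20 of them also with rescaling (plain, then rescaled): Atf3 (3.19, 3.35), Btg2 (4.55, 4.72), Calml3 (1.31, 1.42), Ccl27a (2.15, 2.28), Cox7b (0.80, 0.24), Crabp2 (2.85, 3.002), Dll1 (1.17, 1.27), Dnajb1 (4.14, 4.31), Epcam (3.75, 3.91), Gata3 (1.03, 1.12), Hbegf (1.92, 2.05), Hes1 (1.57, 1.03), Hnrnpa1 (0.47, plain only), Hspb1 (5.09, 5.26), Id3 (4.004, 3.57), Krt17 (2.31, 2.45), Nr4a1 (4.02, 4.19), Sbsn (3.04, 3.20), Sostdc1 (1.02, 1.11), Trp63 (2.17, 2.31), Vdr (1.002, 1.09). Of these, Atf3, Btg2, Calml3, Ccl27a, Dnajb1, Gata3, Hspb1, Krt17, Nr4a1, Sbsn, Trp63 and Vdr had their dorsal remainder set to 0. So had Crabp2, Dll1, Epcam, Hbegf and Sostdc1. The suprabasal keratinocyte median turned too (1.31, 1.42), over the 7 members still kept. Over the same 11 members it was 0 after rescaling. The Hoxc median ran from -1.01 to -1.98 over the settings run. Depth limits the ratios of Hox genes under 0.1 FPKM in Koa ear dermis, which rest on few fragments.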

Other observations

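Genes at which the WT libraries of ear and dorsal dermis lay within 0.25 of each other on the log2(FPKM + 1) scale while Koa ear dermis was past the size rule from the back were collected after the values were seen. Among the 10472 genes that reached 5 FPKM in Koa ear or dorsal dermis, short RNAs left out, there were 13, of which 7 stood higher and 6 lower in the Koa ear. Cwc22, a spliceosome factor, stood at 108 FPKM in Koa ear dermis, 11.2 FPKM in dorsal dermis and 12.6 FPKM in WT ear dermis, and at 165 FPKM in Koa ear epidermis against 14.6 FPKM in dorsal epidermis. Zfp949, a zinc finger gene, stood at 21.95, 5.01 and 4.70 FPKM in the 3 dermal libraries, and at 30.4 FPKM in Koa ear epidermis against 5.93 FPKM in dorsal epidermis. For both, each Koa library stood apart from the WT libraries in both layers. Tnn, the matrix protein tenascin N, stood at 8.43, 2.15 and 2.73 FPKM. Mmp11, a metalloprotease of remodelling stroma, stood at 15.3, 5.46 and 5.57 FPKM. Akr1c14, a steroid dehydrogenase, stood at 8.19, 2.04 and 2.45 FPKM, and S1pr3, a sphingosine phosphate receptor, at 12.1, 5.56 and 4.61 FPKM. Ccl22 was the remaining higher member. The lower members were H2-Ea-ps, H2-Eb1, Cox7b, Fam132a, Rps27 and C5ar1. Cox7b, a respiratory chain subunit, stood at 60.9, 163 and 137 FPKM, and C5ar1, the receptor of complement C5a, at 6.18, 13.9 and 12.9 FPKM. Each of these values comes from 1 library per group, and no Hoxc gene is among them, since the WT ear and the WT back differ there.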
